A study of Mus musculus with 16 samples.

Results

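The clustered protocadherins are cell surface adhesion proteins of the cadherin superfamily, encoded side by side in an alpha, a beta and a gamma cluster. The members described here are the protein-coding mouse genes whose symbols name an alpha, beta or gamma clustered protocadherin. They numbered 57 of the 35975 genes to which the deposited transcripts could be assigned: 14 alpha genes, 22 beta genes and 21 gamma genes. All lie on the plus strand of chromosome 18 in the GRCm38 build, the alpha cluster from 36930184 to 37187661, the beta cluster from 37264938 to 37524479 and the gamma cluster from 37661793 to 37841873. Pcdhgb8, whose symbol also matches, is annotated as a polymorphic pseudogene and was set apart. Of 2 annotated genes that carry the symbol Pcdha11, the one that starts at 37005203 is called Pcdha10 here, its RefSeq name.

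In the alpha and gamma clusters each variable first exon has its own promoter and is spliced to constant exons shared by the whole cluster, whereas each beta gene is a single exon that holds a complete protein. Neurons are known to choose their alpha, beta and gamma A and B promoters stochastically, through loops made by CTCF and cohesin to a distal enhancer, while the C-type genes at the ends of the alpha and gamma clusters are expressed more uniformly. DNA methylation of the variable promoters and the chromatin protein Smchd1 are known to silence these genes. The proteins bind others of identical make-up across cell contacts, which gives neurites an identity for self-recognition.

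Messenger RNA of the mouse embryonic stem cell line ES-E14TG2a (E14) was sequenced in bulk in 16 libraries, from wild-type cells (WT) and from cells labelled TKO. Each genotype was sampled at day 0, on fibronectin in medium that held vitamin C, leukaemia inhibitory factor (LIF) and blockers of MEK and of Gsk3, and at days 2, 4 and 7 after transfer to Fgf2, Activin A and 1% serum replacement, which turns naive stem cells into epiblast-like cells. Cells were split once more at day 4. Each of the 8 groups held 2 libraries, called biological replicates in the labels. Nothing says whether they came from separate cultures or TKO clones, so p-values measure only the spread between these libraries. The comparisons ask how the genotype and the days of differentiation relate to protocadherin RNA.

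The labels do not expand TKO. Summed estimated counts per library ranged from 33168178 to 58197630. Levels are given in CPM, the estimated counts per 1000000 of the scaled library total, or in TPM, which is also corrected for transcript length. Dnmt1, the maintenance DNA methyltransferase, stood at 310 to 545 CPM in the 8 WT libraries and at 36.2 to 55.9 CPM in the 8 TKO libraries. Dnmt3a, a de novo methyltransferase, stood at 187 CPM in TKO day 4 replicate 1 and at 33.9 CPM in replicate 2, against 297 and 380 CPM in WT at day 4. This TKO library therefore stood apart from its partner, and 153 genes differed more than 2-fold between them, against 108 for WT day 0, 79 for WT day 4 and at most 13 in every other group. Whether it held RNA of WT cells was not tested; its Dnmt1 level lay within the TKO range. All 8 naive stem cell markers were lower at day 7 than at day 0 in both genotypes and all 8 epiblast markers were higher. Their summed levels went from 3278 to 3615 CPM at day 0 to 215 to 231 CPM at day 7 in WT, and from 64.3 to 64.5 CPM to 1523 to 1630 CPM for the epiblast list. Bulk RNA cannot tell fewer cells of a type from less RNA per cell.

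Most clustered protocadherin RNA in these cells was assigned to the gamma cluster, and the C-type genes had its highest gene levels. For Pcdhgc4 this rests on a short transcript model with little unique sequence, and for Pcdhgc5 largely on short models, both described further on. Without that model the gamma A and B genes held most of the summed gamma CPM in 6 of the 8 groups, for example 25.6 of 41.3 CPM in WT at day 2, and less than the C-type genes in WT at day 0 (28.9 of 64.1 CPM) and TKO at day 7 (153 of 311 CPM). Averaged over all libraries, Pcdhgc4 stood at 36.9 TPM, Pcdhgc3 at 16.2 TPM and Pcdhgc5 at 5.64 TPM. The next members were Pcdhga1 at 2.43 TPM, Pcdhga7 at 2.29 TPM and Pcdhga11 at 2.24 TPM, close enough to each other that their order is not firm. The highest beta gene was Pcdhb22 at 0.955 TPM and the highest alpha gene was Pcdhac2 at 0.454 TPM, followed by Pcdha11 at 0.217 TPM and Pcdha12 at 0.206 TPM. Pcdhb10 was lowest, at 0.00222 TPM. A filter on low counts kept all 21 gamma members but only 8 of 14 alpha and 13 of 22 beta members. The 15 left out stayed at or under 0.23 CPM in every library.

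**Figure D1:**
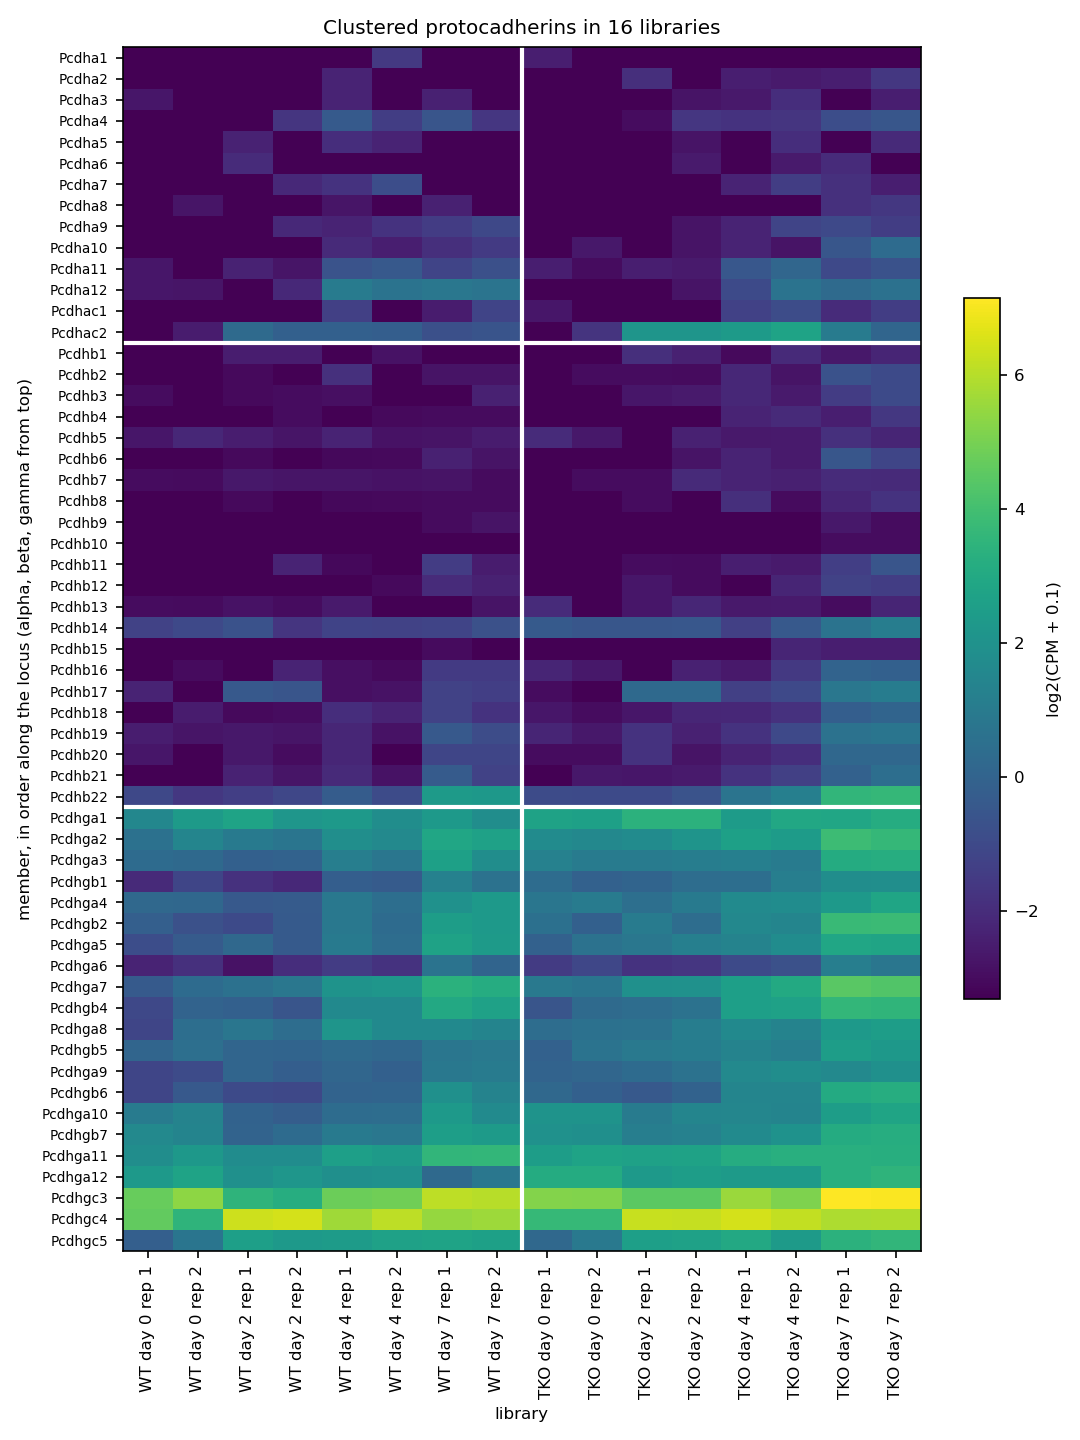
Level of each of the 57 members in each of the 16 libraries as CPM on a log2 colour scale, with members in chromosomal order by cluster and libraries by genotype and day. The gamma rows hold the highest levels, with Pcdhgc4 and Pcdhgc3 highest, and the alpha and beta rows are all under 1 CPM at day 0.

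Summed over its members, each cluster was higher in TKO than in WT on every day. The alpha sum was 0.162 and 0.176 CPM in WT and 0.228 and 0.289 CPM in TKO at day 0, and 1.48 and 1.48 CPM in WT and 4.62 and 4.88 CPM in TKO at day 2. At day 4 it was 5.14 and 4.29 CPM in WT and 7.19 and 10.9 CPM in TKO, and at day 7 it was 3.77 and 3.74 CPM in WT and 5.66 and 5.95 CPM in TKO. The day 0 sums rest on 6 and 7 estimated counts in WT and 8 and 10 in TKO. Both TKO libraries lay above both WT libraries on each day, and in both genotypes the alpha sum was highest at day 4. Pcdhac2 alone held 71.5% and 51.1% of the summed alpha TPM in WT and 92.0% and 77.6% in TKO at day 2. At day 4 it held 13.1% and 12.9% in WT and 68.2% and 49.4% in TKO. Over the 8 tested alpha members the median log2 difference was 0.53, -0.03, -0.05 and 0.30 on days 0, 2, 4 and 7. The higher alpha sum therefore does not describe most alpha members at days 2 and 4.

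The beta sum was 1.08 and 0.955 CPM in WT and 1.74 and 1.36 CPM in TKO at day 0, and 2.05 and 1.76 CPM in WT and 3.03 and 3.31 CPM in TKO at day 2. At day 4 it was 2.14 and 1.19 CPM in WT and 3.73 and 5.54 CPM in TKO, and at day 7 it was 8.79 and 7.62 CPM in WT and 22.7 and 25.2 CPM in TKO. The beta genes were therefore highest at day 7 in both genotypes. The ratio of the TKO to the WT mean was 1.52, 1.66, 2.78 and 2.92 on days 0, 2, 4 and 7. At day 4 it was 2.17 to 3.89 when 1 library was left out.

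The gamma sum was 75.4 and 87.9 CPM in WT and 97.1 and 97.3 CPM in TKO at day 0, and 126 and 127 CPM in WT and 153 and 156 CPM in TKO at day 2. At day 4 it was 127 and 143 CPM in WT and 209.8 and 186 CPM in TKO, and at day 7 it was 209 and 196 CPM in WT and 361.4 and 361.5 CPM in TKO. The TKO to WT ratio was 1.19, 1.22, 1.47 and 1.79 on days 0, 2, 4 and 7. For the gamma A and B genes alone, without the C-type genes, it was 1.60, 1.94, 1.70 and 1.85. These sums are descriptions and carry no test.

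**Figure D2:**
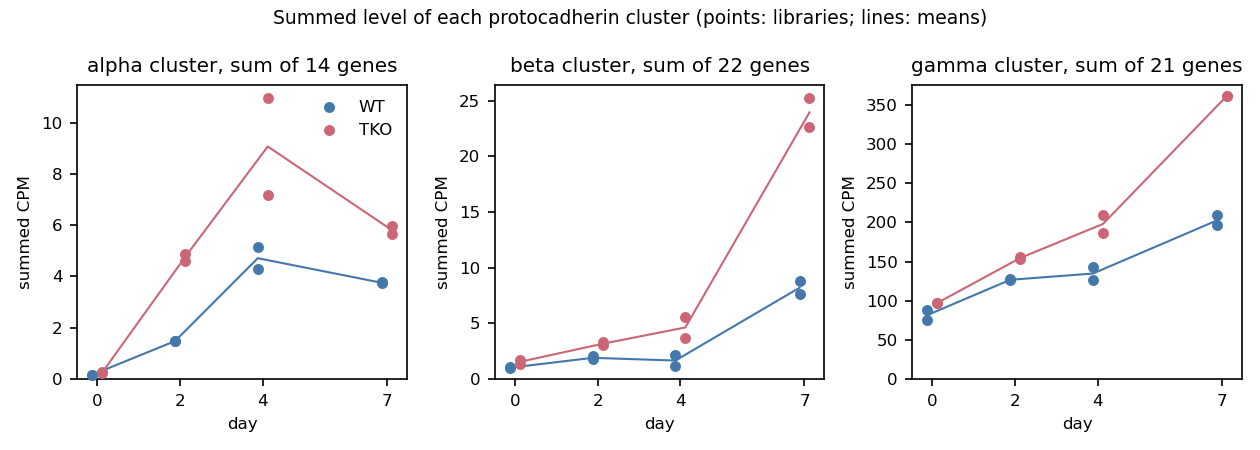
Summed level of the alpha, beta and gamma members in each library (CPM, 1 panel per cluster) against day, with points for single libraries and lines through the means of 2 libraries per group. The TKO points lie above the WT points on every day in each panel, and the beta sum at day 7 was 22.7 and 25.2 CPM in TKO against 8.79 and 7.62 CPM in WT.

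Most measurable members were higher at day 7 than at day 0 in both genotypes. The test was edgeR's quasi-likelihood test over 18489 genes, with Benjamini-Hochberg adjustment over all of them, and a gene is called at an adjusted p under 0.05. From day 0 to day 7, 35 of the 57 members were called higher and 1 lower in WT, where 32.9% of all tested genes were called higher and 33.2% lower. In TKO, 38 of 57 were called higher and the other 19 were not called in either direction, beside 36.1% of all genes that were higher and 31.7% that were lower. In WT these were 7 alpha, 10 beta and 18 gamma genes, and in TKO they were 6 alpha, 13 beta and 19 gamma genes. Over the 21 gamma members the median log2 change was 2.07 in WT and 2.03 in TKO, beside -0.03 and 0.04 over all genes.

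By day 4 fewer members had moved. In WT 23 of 57 members were called higher than at day 0 and 3 lower, beside 31.9% and 31.2% of all genes. In TKO 25 were called higher and 2 lower, beside 34.4% and 28.6% of all genes. The lower members in WT were Pcdhga10, Pcdhgb7 and Pcdhga12, and in TKO Pcdhga12 and Pcdhga10. These counts of called members were 17 in WT without WT day 0 replicate 1, 16 without WT day 4 replicate 1, and 15 in TKO without TKO day 0 replicate 1. Neural markers also moved over these days: 10 of 13 tested were higher at day 7 than at day 0 in WT, beside 32.9% of all genes. In TKO 10 were higher, beside 36.1% of all genes, and Tubb3, a neuronal tubulin, was lower. The summed neural list was 81.5 to 84.3 CPM at day 0 and 476 to 544 CPM at day 7 in WT, and 137 to 140.1 CPM and 516 to 526 CPM in TKO, with Neurog2 and Olig2 near 0. The part of these markers in the protocadherin changes was not tested.

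Between the genotypes, every member called in the fit of all 16 libraries was higher in TKO, on each of the 4 days. Fitted on the day 7 libraries alone, 30 members were called higher and Pcdhga11 lower. At day 0, 6 of 57 members were called higher, beside 4.52% of all genes called higher and 8.16% called lower. At day 2 they were 13 of 57, beside 7.91% and 5.52% of all genes. At day 4 they were 18 of 57, beside 17.8% and 11.1%, and at day 7 they were 26 of 57, beside 23.4% and 21.1%. As shares of all members these are 10.5%, 22.8%, 31.6% and 45.6%. Only 42 of the 57 members were tested, whereas the shares of all genes are over tested genes alone. DESeq2, the other count test run, called 7, 15, 17 and 20 members, all higher, beside 15.7%, 17.0%, 28.6% and 42.4% of all genes in either direction. The 4 days share no libraries, and each has its own WT control.

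Calls in other clusters were added over the days, while the gamma calls rose from 6 at day 0 to 15 at day 7. The beta sum held 38 to 61 estimated counts per library at day 0 and 316 to 916 at day 7. All 6 called at day 0 were gamma A or B genes. At day 2 the called members were 12 gamma genes and Pcdhac2, at day 4 they were 14 gamma, 3 beta and 1 alpha gene, and at day 7 they were 15 gamma, 9 beta and 2 alpha genes. No alpha or beta member was called at day 0, and no beta member at day 2, by edgeR at the adjusted threshold, at an unadjusted p under 0.05, or by DESeq2. Of the members, Pcdhga7, Pcdhga10 and Pcdhgb1 were called on all 4 days, 9 on 3 days, 7 on 2 days and 10 on 1 day. Over the 21 gamma members, all of which passed the filter, the median log2 difference was 0.68 at day 0, 1.09 at day 2, 0.90 at day 4 and 0.89 at day 7, beside -0.03, -0.01, 0.01 and 0.0026 over all genes. Both TKO libraries lay above both WT libraries for 15, 19, 18 and 19 of the 21 gamma members on these days, beside 23.9%, 30.5%, 32.4% and 39.5% of all genes.

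Single libraries bore on these counts. Without WT day 0 replicate 1 edgeR called 0 members at day 0, with 8 at an unadjusted p under 0.05, and without replicate 2 it called 12, of which 11 were higher and Pcdhgc4 was lower. Without either TKO day 0 library 1 member was called. The day 2 count was 7 without WT day 2 replicate 2 and 6 without TKO day 2 replicate 2. The day 4 count was 15 without TKO day 4 replicate 1, the library that stood apart in Dnmt3a, 14 without replicate 2, of which 13 were higher and Pcdha12 was lower, and 11 without WT day 4 replicate 2. The day 7 count was 12 without WT day 7 replicate 2 and 15 without TKO day 7 replicate 2.

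Marker lists differed between the genotypes as well. Of all genes, 17.8% were called higher and 11.1% lower in TKO at day 4, and 23.4% higher and 21.1% lower at day 7. Of 8 naive markers, Zfp42, Esrrb, Klf4 and Tfcp2l1 were higher in TKO at day 4, with sums of 317 to 399.8 CPM in WT and 321 to 394 CPM in TKO. At day 7 Zfp42, Klf4, Tfcp2l1 and Klf2 were higher and Tbx3 lower, with sums of 215 to 231 CPM in WT and 248 to 254 CPM in TKO. Of 8 epiblast markers, 4 were lower in TKO at day 7 (Otx2, Pou3f1, Foxd3 and Dnmt3b) and Lef1 was higher. The epiblast sums were 1523 to 1630 CPM in WT and 896 to 909.9 CPM in TKO. Dnmt3b counts in these sums and is also among the 7 silencing genes below, of which Dnmt1 and Dnmt3a were lower too. How much of the lower epiblast sum is Dnmt3b was not separated. At day 4, 3 epiblast markers were higher and 2 lower. At day 7 the mesoderm and endoderm list summed to 149 to 193 CPM in WT and 703 to 742 CPM in TKO, with T, Mixl1 and Foxa2 higher and Sox17 and Gata4 lower among 6 tested of 7 and with Mesp1 near 0. At day 4, 7 of 13 tested neural markers were higher in TKO and Snap25 was lower, with sums of 182 to 282 CPM in WT and 261 to 366 CPM in TKO. Of 7 tested fibroblast markers, Pdgfrb and Dcn were higher at day 7, with list sums of 33.8 to 42.9 CPM in WT and 49.4 to 53.3 CPM in TKO and with Lum and Twist2 near 0. At day 7 Pou5f1 and Sox2, the core pluripotency factors, were both lower in TKO, with sums of 838 to 877 CPM in WT and 608 to 612 CPM in TKO. The part of these lists in the protocadherin differences was not tested.

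**Figure D3:**
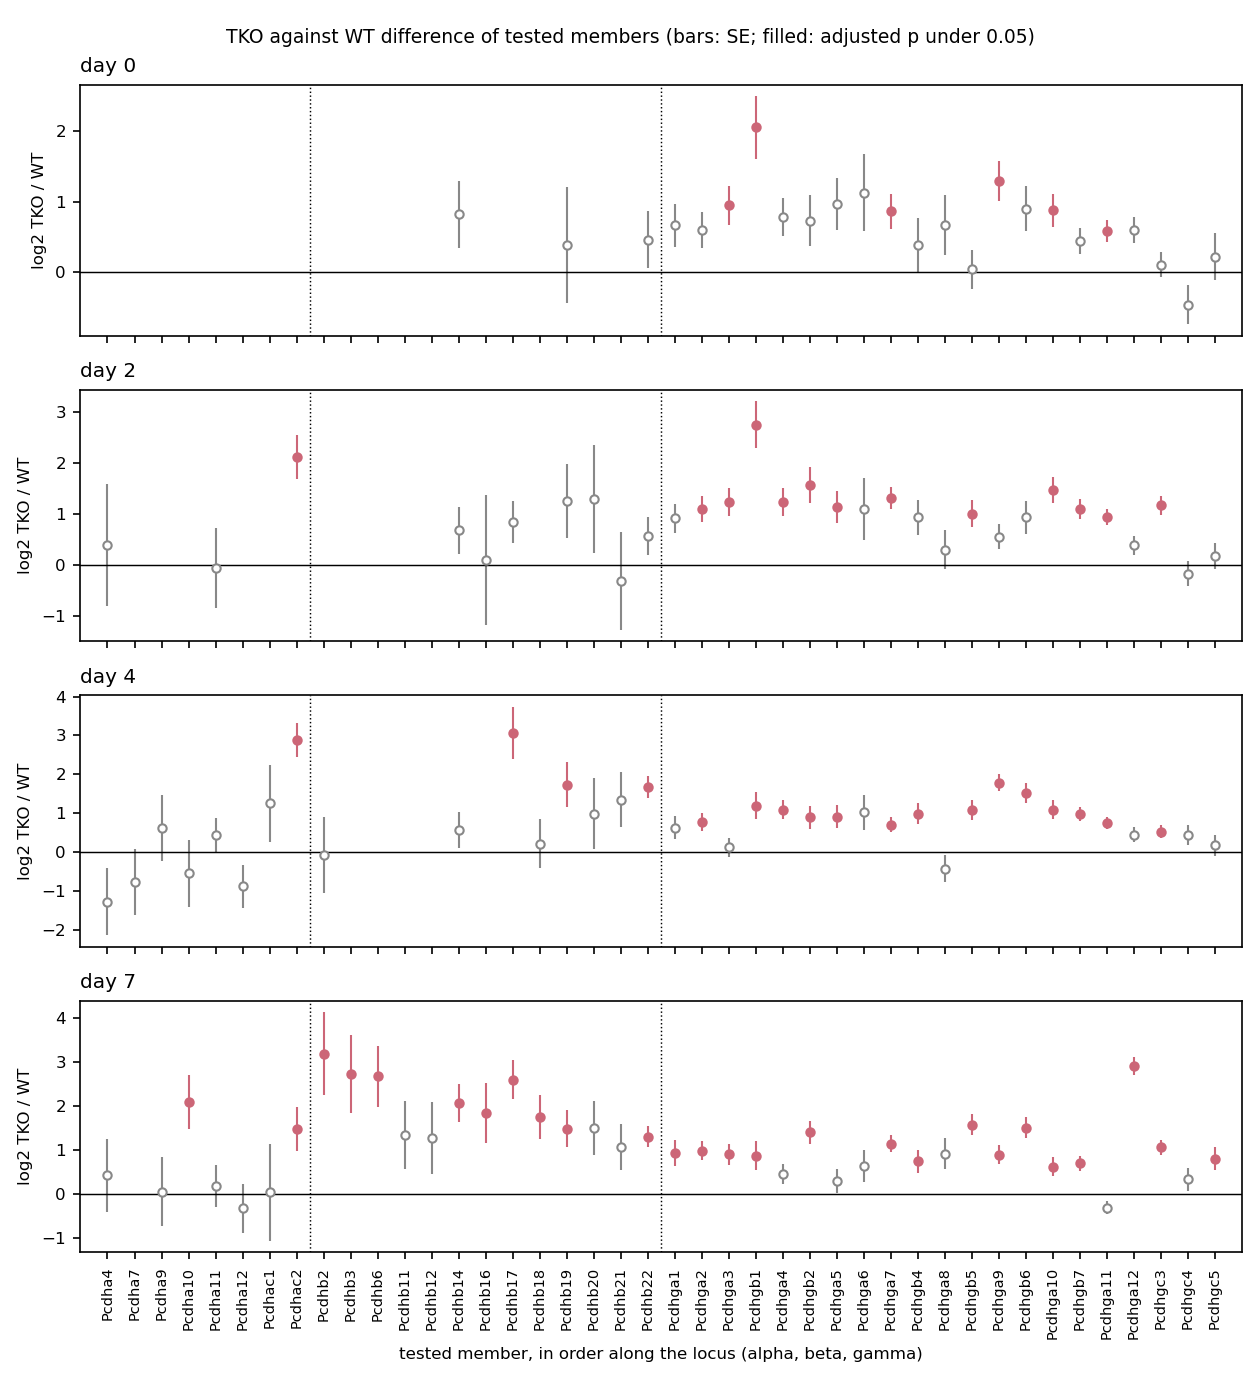
Log2 difference between TKO and WT for the tested members on each day, with standard errors (filled points: adjusted p under 0.05). Members with 3 counts or fewer in a group are not drawn. The called points all lie above 0, from 6 gamma genes at day 0 to 15 gamma, 9 beta and 2 alpha genes at day 7.

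The gamma C-type genes had the highest mean TPM and did not move alike. For Pcdhgc4 this TPM rests on its short transcript model, and for Pcdhgc5 largely on models of 444 and 593 bases. Pcdhgc3, whose product also acts outside the recognition code and is broadly expressed in development, stood at 26.1 and 41.5 CPM in WT at day 0, 11.1 and 9.05 at day 2, 27.8 and 29.1 at day 4 and 68.2 and 65.4 at day 7. In TKO it stood at 37.1 and 35.7 CPM at day 0, 23.0 and 22.5 at day 2, 47.0 and 35.0 at day 4 and 142 and 136 at day 7. The genotypes overlapped at day 0 and separated from day 2 on, and both dipped at day 2. Its log2 difference was 1.17 ± 0.19 (SE; edgeR, adjusted p = 0.00201) at day 2, 0.53 ± 0.18 (adjusted p = 0.0396) at day 4 and 1.06 ± 0.18 (adjusted p = 0.000324) at day 7. Leaving out TKO day 4 replicate 1 put the day 4 difference at 0.29 and ended its call, as did leaving out either WT day 4 library. The day 4 call was also lost without a low-count filter, with protein-coding transcripts alone, with a replicate block and in a fit of the compared libraries alone. From day 0 to day 7 Pcdhgc3 rose by 0.98 ± 0.18 in WT (adjusted p = 0.000278) and by 1.93 ± 0.18 in TKO (adjusted p = 5.9e-07).

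Pcdhgc4, the gamma C gene that mice need for interneuron survival, showed no genotype call on any day. In WT it stood at 24.4 and 11.2 CPM at day 0, 82.6 and 88.5 at day 2, 49.9 and 69.4 at day 4 and 44.5 and 48.4 at day 7. In TKO it stood at 12.8 and 13.0 CPM at day 0, 77.3 and 74.7 at day 2, 88.5 and 73.2 at day 4 and 57.8 and 58.9 at day 7. Its level was highest at day 2 in WT, and WT day 0 replicate 1 lay above its partner and above both TKO libraries. It rose from day 0 to day 7 by 1.39 ± 0.27 in WT (edgeR, adjusted p = 0.000658) and by 2.17 ± 0.28 in TKO. The day 0 difference of -0.46 ± 0.28 did not pass the test.

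The Pcdhgc4 level rests on an unusual transcript model. A short model of 2272 bases held 96.8% of the gene's estimated counts, and the full-length model of 5024 bases held 2.83%. Only 6.74% of the 31-base words of the short model occur in no other member transcript, against 58.1% for the full-length model. The short model stood at 29.5 and 33.2 TPM in WT and 39.4 and 42.0 TPM in TKO at day 7. The full-length model stood at 0 and 0.0534 TPM in WT and 0.153 and 0.0858 TPM in TKO at day 0. At day 7 it stood at 0.939 and 0.815 TPM in WT and 2.85 and 2.05 TPM in TKO. The full-length transcript was therefore highest at day 7, when both TKO libraries lay above both WT libraries, while the short one was highest at day 2 in WT. With the short model left out, the gamma sum was 1.91-fold higher in TKO at day 2 and 1.95-fold higher at day 7.

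**Figure D4:**
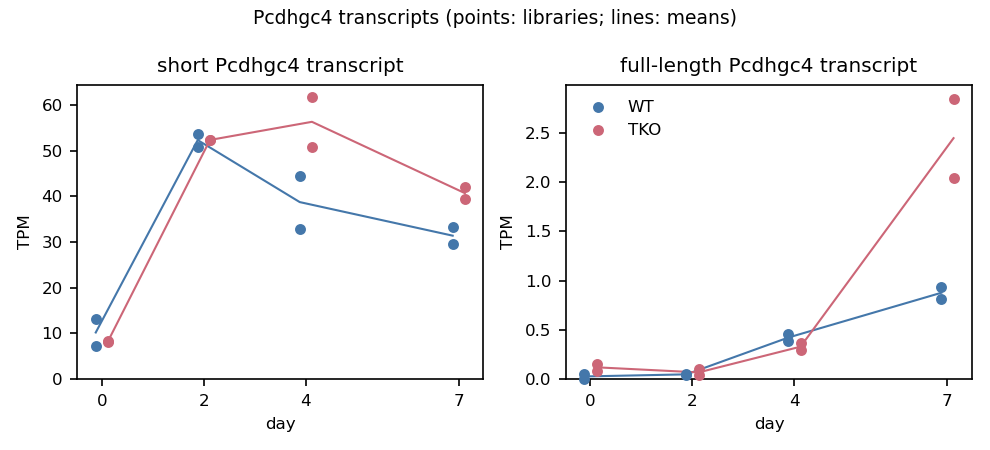
TPM of the short and the full-length Pcdhgc4 transcript models in each library against day (separate panels with their own scales; points are libraries, lines join means of 2). The short model reached 53.7 TPM in WT at day 2, and stood at 61.7 and 50.85 TPM in TKO at day 4. The full-length model was highest at day 7, with 2.85 and 2.05 TPM in TKO.

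Pcdhgc5, the last gene of the gamma cluster, stood at 0.811 and 1.58 CPM in WT and 1.05 and 1.76 CPM in TKO at day 0. At day 7 it stood at 6.69 and 6.10 CPM in WT and 10.5 and 11.8 CPM in TKO. The groups overlapped at day 0 and did not overlap at day 7, where the log2 difference was 0.80 ± 0.26 (edgeR, adjusted p = 0.0227). This call was lost without any 1 of the 4 day 7 libraries. A retained-intron model held 61.6% of the gene's counts and the full-length model 22.3%. Short models of 444 and 593 bases held 8.6% and 7.5% of the counts but most of the gene's TPM. Only 34.5% and 25.9% of their 31-base words occur in no other member transcript. At day 7 the 444-base model stood at 4.1 and 2.1 TPM in WT and 6.1 and 4.7 TPM in TKO. The full-length model stood at 0.660 and 0.725 TPM in WT and at 1.66 and 2.48 TPM in TKO at day 7, and the retained-intron model at 0.973 and 0.916 TPM in WT and 1.19 and 1.15 TPM in TKO.

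Among the 12 gamma A and 6 gamma B genes, which encode stochastically chosen recognition proteins, 5 A and 1 B were called higher in TKO at day 0. The numbers were 7 A and 4 B at day 2, 7 A and 6 B at day 4, and 7 A and 6 B at day 7. Single alpha and gamma members are uncertain, because reads of the shared constant exons are divided among them by the estimation: 2.51% of nonzero gamma values and 6.21% of alpha values were whole numbers within 0.001, against 62.0% of beta values. Of 10 gamma transcripts with at least 75% unique 31-base words and a mean of at least 5 estimated counts, both TKO libraries lay above both WT libraries in 3, 5, 4 and 6 on days 0, 2, 4 and 7, beside 23.9%, 30.5%, 32.4% and 39.5% of all genes. Both TKO libraries lay below both WT libraries in 2 of these transcripts at day 0 (of Pcdhga12 and Pcdhgb5) and in 2 at day 4 (of Pcdhgb4 and Pcdhgc4).

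Pcdhga7 was among the 3 members called on all days. In WT it stood at 0.676 and 1.16 CPM at day 0, 1.38 and 1.66 at day 2, 4.12 and 4.49 at day 4 and 10.1 and 8.92 at day 7. In TKO it stood at 1.79 and 1.56 CPM at day 0, 3.72 and 3.82 at day 2, 5.98 and 8.05 at day 4 and 22.0 and 19.9 at day 7. Both genotypes rose over the days, with the TKO libraries above the WT libraries at each. The log2 difference was 0.86 ± 0.25 (edgeR, adjusted p = 0.039) at day 0, 1.32 ± 0.22 (adjusted p = 0.00201) at day 2 and 1.14 ± 0.19 (adjusted p = 0.00024) at day 7. From day 0 to day 7 it rose by 3.36 ± 0.23 in WT (adjusted p = 1.49e-08) and 3.64 ± 0.22 in TKO (adjusted p = 3.86e-09), in each genotype the lowest adjusted p of any member. Leaving out WT day 0 replicate 1 or either TKO day 0 library ended the day 0 call. The day 4 difference of 0.70 was no longer called without WT day 4 replicate 1 or TKO day 4 replicate 2.

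Pcdhgb1 had the largest day 0 difference among the called members. In WT it stood at 0.135 and 0.352 CPM at day 0, 0.183 and 0.130 at day 2, 0.776 and 0.711 at day 4 and 2.32 and 1.45 at day 7. In TKO it stood at 1.20 and 0.866 CPM at day 0, 0.929 and 1.24 at day 2, 1.29 and 2.14 at day 4 and 3.39 and 3.50 at day 7. The TKO libraries already stood near 1 CPM at day 0, which WT exceeded only at day 7. TKO exceeded WT on the log2 scale by 2.05 ± 0.44 (edgeR, adjusted p = 0.00933) at day 0, 2.76 ± 0.46 (adjusted p = 0.00214) at day 2, 1.20 at day 4 and 0.87 at day 7. Leaving out WT day 0 replicate 1 or TKO day 0 replicate 1 ended the first of these calls. Without either WT day 4 library or TKO day 4 replicate 2 the call of that day was lost, and likewise for day 7 without WT day 7 replicate 2 or either TKO day 7 library. When only protein-coding transcripts were summed, the Pcdhgb1 calls of days 2, 4 and 7 were lost, and DESeq2 did not call it at day 7. Pcdhga10, the third member called on all days, followed another course: it was lower at day 4 than at day 0 in both genotypes. It stood at 1.95 and 2.49 CPM in WT and 4.10 and 4.07 CPM in TKO at day 0, 1.21 and 1.23 CPM and 2.69 and 2.53 CPM at day 4, and 4.92 and 3.16 CPM and 5.63 and 6.78 CPM at day 7. Its log2 difference was 0.88 ± 0.23 (edgeR, adjusted p = 0.0257) at day 0. That call was lost without WT day 0 replicate 1 or either TKO day 0 library, the day 2 call (1.47) without TKO day 2 replicate 2, and the day 7 call (0.62) without WT day 7 replicate 2 or either TKO day 7 library.

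Pcdhga12, the last gamma A gene, took opposite courses in the genotypes after day 4. In WT it stood at 4.84 and 6.61 CPM at day 0, 3.76 and 4.46 at day 2, 3.62 and 3.80 at day 4 and 1.11 and 1.66 at day 7. In TKO it stood at 8.71 and 8.63 CPM at day 0, 5.03 and 5.65 at day 2, 5.06 and 5.10 at day 4 and 9.75 and 11.3 at day 7. WT was lowest at day 7 and TKO highest. The day 7 log2 difference was 2.92 ± 0.21 (edgeR, adjusted p = 1.7e-07), the lowest adjusted p of any member between the genotypes. In WT the fall from day 0 to day 7 was -2.04 ± 0.21 (adjusted p = 1.08e-06), the single lower call of that comparison. The full-length model held 94.8% of its counts.

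Pcdhga11, its neighbour, differed from most gamma A genes at day 7. It stood at 3.46 and 4.72 CPM in WT and 5.66 and 6.58 CPM in TKO at day 0, 3.29 and 3.32 CPM and 6.26 and 6.40 CPM at day 2, and 5.90 and 5.12 CPM and 8.96 and 9.59 CPM at day 4. At day 7 it stood at 11.6 and 12.0 CPM in WT and 9.54 and 9.48 CPM in TKO. TKO lay above WT on days 0, 2 and 4, and WT lay above TKO at day 7. Log2 differences were 0.58 ± 0.16 (edgeR, adjusted p = 0.0273) at day 0, 0.94 ± 0.16 (adjusted p = 0.00214) at day 2 and 0.75 ± 0.15 (adjusted p = 0.00206) at day 4, and the value of -0.31 at day 7 did not pass. Without WT day 0 replicate 1 or either TKO day 0 library the first call did not hold.

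Other gamma members with low adjusted p values at days 4 and 7 included Pcdhga9, Pcdhgb5, Pcdhgb6 and Pcdhgb2. Pcdhga9 stood at 1.00 and 0.815 CPM in WT and 2.94 and 3.38 CPM in TKO at day 4, a log2 difference of 1.79 ± 0.23 (edgeR, adjusted p = 7.98e-05). Pcdhgb5 stood at 1.64 and 1.78 CPM in WT and 5.55 and 4.68 CPM in TKO at day 7, a log2 difference of 1.58 ± 0.24 (edgeR, adjusted p = 0.000163). At day 0 Pcdhgb5 had overlapped between the genotypes, at 0.973 and 1.31 CPM in WT and 0.854 and 1.50 CPM in TKO. Pcdhgb6 stood at 3.69 and 2.46 CPM in WT and 8.31 and 9.23 CPM in TKO at day 7, a log2 difference of 1.51 ± 0.24 (edgeR, adjusted p = 0.000205). Pcdhgb2 stood at 5.60 and 4.80 CPM in WT and 13.5 and 13.9 CPM in TKO at day 7, a log2 difference of 1.40 ± 0.27 (edgeR, adjusted p = 0.00081). None of these day 4 and day 7 groups overlapped, and these calls held without any single library. The Pcdhgb2 call was lost when only transcripts annotated as protein coding were summed.

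The remaining gamma A and B genes split by day. Pcdhgb7, at the end of the gamma B series, stood at 2.92 and 2.56 CPM in WT and 3.81 and 3.64 CPM in TKO at day 0, 0.914 and 1.17 CPM and 2.13 and 2.32 CPM at day 2, and 5.82 and 5.16 CPM and 8.68 and 9.09 CPM at day 7. It was lower at day 2 than at day 0 or day 7 in every library, a course it shared with Pcdhgc3. Its log2 difference was 1.11 ± 0.20 (edgeR, adjusted p = 0.00339) at day 2 and 0.69 ± 0.17 (adjusted p = 0.0044) at day 7, and the latter call was lost without WT day 7 replicate 2. Pcdhga2 stood at 7.34 and 6.29 CPM in WT and 14.5 and 12.6 CPM in TKO at day 7, a log2 difference of 0.99 ± 0.23 (edgeR, adjusted p = 0.00297). Pcdhga5 stood at 1.81 and 1.23 CPM in WT and 2.50 and 3.29 CPM in TKO at day 4, but at day 7 its levels of 6.47 and 5.06 CPM in WT and 7.33 and 6.91 CPM in TKO gave a difference of 0.30 ± 0.27 that did not pass (edgeR, adjusted p = 0.395). Pcdhga5 thus differed between the genotypes at the earlier days, when its level was low; its calls were lost without WT day 2 replicate 2 or either TKO library at day 2, and without replicate 2 of either genotype at day 4. Pcdhgb4 stood at 3.07 and 3.03 CPM in WT and 5.94 and 6.21 CPM in TKO at day 4, and its call was lost without either WT library of that day. Pcdhga1 stood at 4.85 and 3.45 CPM in WT and 7.16 and 8.73 CPM in TKO at day 7, a difference of 0.94 ± 0.30 (edgeR, adjusted p = 0.0206) that was lost without WT day 7 replicate 2 or TKO day 7 replicate 2. The gamma members not called between the genotypes on any day were Pcdhga6, Pcdhga8 and Pcdhgc4.

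**Figure D5:**
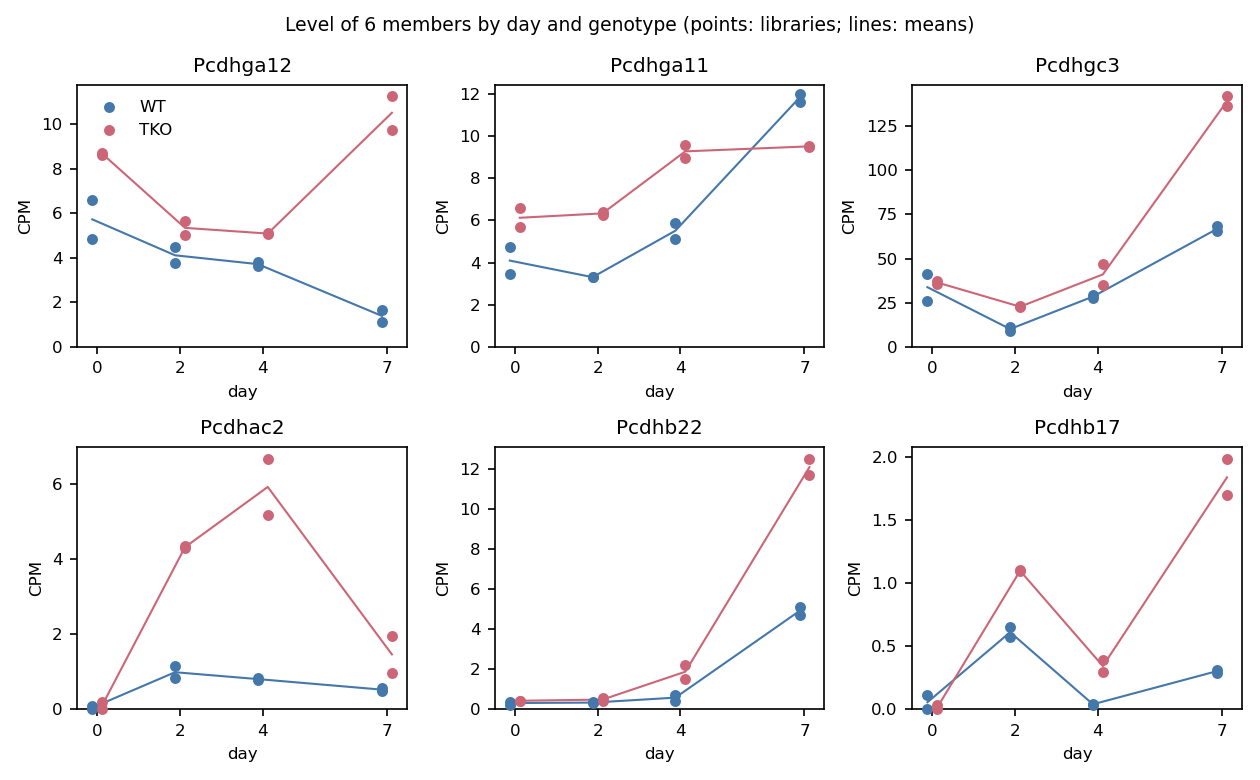
CPM of selected members in each library against day for WT and TKO (points are libraries, lines join means of 2, and each panel has its own scale). Pcdhga12 at day 7 stood at 1.11 and 1.66 CPM in WT and 9.75 and 11.3 CPM in TKO, while Pcdhga11 was higher in WT at day 7.

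The beta genes, single-exon genes whose reads can be assigned more firmly, were called between the genotypes only at days 4 and 7. The beta sum was higher in TKO on every day, but held only 38 to 141 estimated counts per library at days 0 and 2. Pcdhb22, the last beta gene, held the largest share of the cluster, 58.8% and 63.4% of the summed beta TPM in WT and 51.3% and 49.8% in TKO at day 7. Its annotated span, 37517871 to 37524479, overlaps that of Pcdhb21, 37513621 to 37518325, so reads of the overlap may belong to either. In WT it stood at 0.378 and 0.226 CPM at day 0, 0.284 and 0.363 at day 2, 0.724 and 0.418 at day 4 and 5.12 and 4.68 at day 7. In TKO it stood at 0.427 and 0.404 CPM at day 0, 0.410 and 0.539 at day 2, 1.52 and 2.21 at day 4 and 11.7 and 12.5 at day 7. Most of its increase came between days 4 and 7 in both genotypes. The log2 difference was 1.68 ± 0.28 (edgeR, adjusted p = 0.000634) at day 4 and 1.30 ± 0.23 (adjusted p = 0.000545) at day 7. From day 0 to day 7 it rose by 4.01 ± 0.31 in WT (adjusted p = 6.57e-08) and by 4.85 ± 0.30 in TKO (adjusted p = 6.52e-09).

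Pcdhb17 was near 0 at day 0, with 4 counts over both WT libraries and 1 over both TKO libraries. In WT it stood at 0.650 and 0.571 CPM at day 2, 0.0345 and 0.0418 at day 4 and 0.314 and 0.289 at day 7, and in TKO at 1.09 and 1.10 CPM, 0.292 and 0.391 CPM and 1.70 and 1.98 CPM. Both genotypes were lower at day 4 than at day 2 or day 7. WT was highest at day 2 and TKO at day 7, and TKO lay above WT on days 2, 4 and 7. TKO was higher by 3.07 ± 0.67 on the log2 scale (edgeR, adjusted p = 0.00382) at day 4 and 2.60 ± 0.44 (adjusted p = 0.000348) at day 7. In TKO its day 7 count of 131 against 1 at day 0 gives a ratio of 129 after scaling for library size, with a 95% interval of 22.7 to 5117 for counting error only.

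Pcdhb14 changed with genotype more than with time in WT. It stood at 0.324 and 0.402 CPM at day 0 and 0.338 and 0.506 CPM at day 7 in WT, and at 0.683 and 0.606 CPM and 1.49 and 2.07 CPM in TKO. The TKO libraries lay above the WT libraries on both days. The day 7 log2 difference was 2.07 ± 0.43 (edgeR, adjusted p = 0.00142), a call that held without any single library. Pcdhb19 stood at 0.652 and 0.434 CPM in WT and 1.44 and 1.60 CPM in TKO at day 7, a log2 difference of 1.48 ± 0.42 (edgeR, adjusted p = 0.0114), which was lost without WT day 7 replicate 2 or TKO day 7 replicate 2. The other 5 beta genes called at day 7 were Pcdhb2, Pcdhb3, Pcdhb6, Pcdhb16 and Pcdhb18, with log2 differences of 1.75 to 3.19. Each of these 5 calls rested on single libraries: the Pcdhb16 call was lost without any 1 of the 4 libraries of that day, Pcdhb2 without either WT library or TKO replicate 1, Pcdhb3 without WT replicate 1 or TKO replicate 2, Pcdhb6 without WT replicate 2 or TKO replicate 1, and Pcdhb18 without replicate 2 of either genotype. DESeq2 called 4 beta members at day 7 against 9 by edgeR. Pcdhb20 stood at 0.362 and 0.362 CPM in WT and 1.03 and 1.02 CPM in TKO at day 7. These groups did not overlap, but the log2 difference of 1.50 ± 0.61 did not pass the test (edgeR, adjusted p = 0.0607). The 9 beta genes that did not pass the filter summed to 0.193 and 0.241 CPM in WT and 0.776 and 1.02 CPM in TKO at day 7. By position, the ratio of the TKO to the WT sum was 1.29, 1.51, 2.68 and 4.26 on days 0, 2, 4 and 7 for Pcdhb1 to Pcdhb13. For Pcdhb14 to Pcdhb22 it was 1.56, 1.70, 2.81 and 2.80. The Pcdhb1 to Pcdhb13 sums held 5 and 7 estimated counts in WT and 10 and 4 in TKO at day 0. At day 4 they held 28 and 10 in WT, and at day 7 30 and 25 in WT and 93 and 108 in TKO. With so few counts, the order of the ratios on days 0, 2 and 4 is not firm.

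Alpha members were the scarcest. Pcdhac2, the C-type gene at the end of the alpha cluster, was near 0 at day 0, with 0 and 0.0754 CPM in WT and 0 and 0.202 CPM in TKO. It stood at 1.14 and 0.830 CPM in WT and 4.35 and 4.29 CPM in TKO at day 2, 0.828 and 0.773 CPM and 5.19 and 6.67 CPM at day 4, and 0.483 and 0.555 CPM and 1.95 and 0.964 CPM at day 7. TKO lay above WT on days 2, 4 and 7, and most clearly at day 4. The log2 difference was 2.12 ± 0.44 (edgeR, adjusted p = 0.00746) at day 2, 2.88 ± 0.44 (adjusted p = 0.000322) at day 4 and 1.48 ± 0.50 (adjusted p = 0.0266) at day 7. The day 4 call held without any single library, the day 2 call was lost without WT day 2 replicate 2 or TKO day 2 replicate 2, and the day 7 call without either WT day 7 library or TKO day 7 replicate 1. From 3 counts over both WT libraries at day 0 to 85 at day 4 its ratio was 20.6, with a 95% counting interval of 6.80 to 102.

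The make-up of the alpha RNA at day 4 differed between the genotypes. Pcdhac2 held 13.1% and 12.9% of the summed alpha TPM in WT and 68.2% and 49.4% in TKO, while Pcdha12, a variable alpha gene, held 34.3% and 27.8% in WT and 6.14% and 12.3% in TKO. Pcdha12 stood at 1.97 and 1.51 CPM in WT and 0.417 and 1.49 CPM in TKO at day 4, and 1.67 and 1.52 CPM and 1.12 and 1.41 CPM at day 7. It was not called between the genotypes on any day, and was among the members called higher at days 4 and 7 than at day 0. Its TKO counts of 85 at day 4 and 90 at day 7 against 0 at day 0 put it at least 21.6-fold and at least 29.4-fold higher, with a floor of 3 counts over the group. Pcdha4, with 52 counts in WT at day 4 and 0 at day 0, was at least 12.6-fold higher. Pcdha11 was called higher at day 7 than at day 0 in both genotypes, and it stood at 0.534 and 0.669 CPM in WT and 0.625 and 1.01 CPM in TKO at day 4, where the log2 difference was 0.44 ± 0.42 (edgeR, adjusted p = 0.475). Pcdha10 stood at 0.169 and 0.241 CPM in WT and 0.604 and 1.16 CPM in TKO at day 7, a log2 difference of 2.09 ± 0.62 (edgeR, adjusted p = 0.0172), which was lost without either WT day 7 library or TKO day 7 replicate 2 and by DESeq2. Pcdhac1, the other alpha C-type gene, stood at 0.293 and 0 CPM in WT at day 4 and at 0.0724 and 0.338 CPM at day 7. In TPM it stood at 0.0778 and 0 in WT and 0.0867 and 0.123 in TKO at day 4. At day 7 it stood at 0.0240 and 0.0954 TPM in WT and 0.0490 and 0.0879 TPM in TKO. It was not called between the genotypes on any day. In WT it was called higher at day 7 than at day 0, on 17 against 0 counts. That call was lost without either WT day 0 library and with a replicate block, among others.

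A test of the change in the genotype difference from day 0 called 1 of 57 members at day 4, beside 16.3% of all genes, and 5 at day 7, beside 27.1%. At day 4 it was Pcdhb17. At day 7 Pcdhga12, Pcdhgb5, Pcdhgc3 and Pcdhb17 gained in TKO relative to WT and Pcdhga11 lost. For Pcdhga12 the change was 2.32 ± 0.28 on the log2 scale (edgeR, adjusted p = 3.84e-05), and for Pcdhga11 it was -0.89 ± 0.21 (adjusted p = 0.00699). Both of these calls held in every alternative computed. The day 7 count was 3 without WT day 7 replicate 2 or without TKO day 0 replicate 2. The day 4 count was 0 without WT day 4 replicate 2 (5 at an unadjusted p under 0.05), without TKO day 0 replicate 1 (1) or without TKO day 4 replicate 2 (5), and 3 without WT day 0 replicate 2.

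Genes that act on the cluster or lie beside it were counted in the same way. Of all genes, 4.52% were called higher in TKO at day 0, and 23.4% higher and 21.1% lower at day 7. Of 10 genes of promoter looping, Ctcf was called higher in TKO at day 0, with a log2 difference of 0.29 ± 0.07 (edgeR, adjusted p = 0.021). At day 7 the cohesin regulator Pds5b was higher and the cohesin genes Stag2 and Smc3 and the regulator Pds5a were lower, with Stag2 at -0.42 ± 0.11 (edgeR, adjusted p = 0.00855). Of 7 silencing genes, Smchd1 stood at 243 and 225 CPM in WT and 299 and 285 CPM in TKO at day 7, a log2 difference of 0.32 ± 0.12 (edgeR, adjusted p = 0.0475). Dnmt1 (-3.08 ± 0.10), Dnmt3a (-3.13 ± 0.60) and Dnmt3b (-1.71 ± 0.19) were lower. Of 12 neighbouring genes of the locus, 5 were called lower at day 7, beside 21.1% of all genes, and the other 7 were not called. The median log2 difference of these neighbours was -0.21.

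Of 15 partners of protocadherin signalling, 4 were called higher and 5 lower in TKO at day 7, beside 23.4% and 21.1% of all genes. Ret, a receptor tyrosine kinase that binds protocadherins, was higher by 2.73 ± 0.21 (edgeR, adjusted p = 3.48e-07), and Wasf1, of the WAVE actin complex, by 0.73 ± 0.08. The kinase Fyn differed by -0.61 ± 0.10 and the presenilin Psen2 by -0.84 ± 0.15. Of the 12 non-clustered protocadherins, which are single genes outside the clusters, 6 were called higher and Pcdh11x lower at day 4. This stands beside 17.8% and 11.1% of all genes. At day 7, 5 were called higher and Pcdh1 and Pcdh11x lower, beside 23.4% and 21.1% of all genes. Pcdh19 was higher by 2.24 ± 0.28 (edgeR, adjusted p = 2.49e-05) and Pcdh10 by 2.61 ± 0.35 (adjusted p = 5.57e-05), and Pcdh11x differed by -5.69 ± 0.77. From day 0 to day 7, 9 of these 12 were called higher in WT and 9 in TKO, beside 32.9% and 36.1% of all genes.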

How the data were processed

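The members, lists and tests were chosen with earlier results of these data known. Stranded mRNA libraries were quantified by the authors with kallisto on GRCm38 (mm10), per the submitters' processing notes; the annotation release and strand setting are not given in the sources used here. Per the file headers, each deposited table gives transcripts with an effective length, an estimated count and a TPM value. Estimated counts were summed per gene after matching transcript identifiers to GENCODE vM21 (116728 of 119414 transcripts, 97.8%; the unmatched held 0.95 to 1.05% of counts per library) and rounded. Deposited TPM values were summed per gene, and effective lengths were used only as an alternative offset.

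edgeR 4.0.16 (R 4.3.3) was fitted to all 16 libraries with TMM scaling, a low-count filter by group (filterByExpr), robust quasi-likelihood dispersion, 1 mean per group and 8 residual degrees of freedom. It was tested on simulated data for day 7 TKO against WT on 17549 genes and recovered 100% of genes changed by 2 and 97% of those changed by 1 on the log2 scale. The changed genes all had a mean over 1 CPM, and every gene was given the common dispersion. These percentages therefore do not cover scarcer or noisier genes, such as many alpha and beta members. The ± values are standard errors. The common biological coefficient of variation was 0.111. The 2 libraries per group limit precision, and so do the low counts of many alpha and beta members. Cluster sums were not tested. Ratios against groups with 3 or fewer counts were computed from counts, with a 95% interval for counting error only.

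Members named were the C-type genes, the 6 other members per cluster with the highest mean TPM, and the 4 called members per cluster and direction with the lowest adjusted p in each of 10 comparisons; Pcdhb10, Pcdhb3, Pcdhb16, Pcdhga6, Pcdhga8 and the set-apart Pcdhgb8 were named after their values were seen. Alternatives were DESeq2 1.42.0, other filters and offsets, fits of the compared libraries alone, a replicate block, protein-coding transcripts alone and leaving out each library, which assumes that the lone library varies like the other groups. Leaving out transcripts with little unique sequence and the short Pcdhgc4 transcript were chosen after seeing the data. Other tools were Python 3.11.15, pandas 2.3.3 and matplotlib 3.10.9. No member sequences are printed.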

Additional observations from a re-analysis of the deposited data

Results flagged for a closer look

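For 5 members the TKO against WT difference itself changed with the day, by edgeR's test of the change from day 0 adjusted over all genes. This was 1 of 57 members at day 4, beside 16.3% of all genes, and 5 at day 7, beside 27.1%, so the share among the members was below that of all genes. The Pcdhga12 difference grew by 2.32 ± 0.28 on the log2 scale from day 0 to day 7 (adjusted p = 3.84e-05), with both TKO libraries above both WT libraries on both days. The Pcdhgb5 difference grew by 1.53 ± 0.37 (edgeR, adjusted p = 0.00678) and was 1.04 and no longer called when only transcripts annotated as protein coding were summed. The Pcdhga11 difference fell by 0.89 ± 0.21 (edgeR, adjusted p = 0.00699), from TKO above WT at day 0 to WT above TKO at day 7. The Pcdhgc3 difference grew by 0.95 ± 0.25 (edgeR, adjusted p = 0.0126), and this call was lost without any 1 of WT day 0 replicate 2 (0.52), TKO day 0 replicate 2, WT day 7 replicate 2 or TKO day 7 replicate 1.

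The Pcdhb17 difference grew by 4.74 ± 1.45 from day 0 to day 4 (edgeR, adjusted p = 0.0404) and by 4.27 ± 1.36 from day 0 to day 7 (adjusted p = 0.0321). Its day 0 counts were 4 over both WT libraries and 1 over both TKO libraries, so these fitted sizes depend on the handling of low counts and are no bound. Without WT day 0 replicate 1 they were 0.54 and 0.06.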

How the results depend on the processing

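Of 169 calls of named members, 97 held in every alternative computed, and of 2160 alternative values 1922 kept direction and call, 237 kept direction and lost the call, and 1 went to no change: Pcdhb2 from day 0 to day 4 in WT went from 4.98 to 0.0 without WT day 4 replicate 1 and to 5.85 without replicate 2, fitted values with few counts that are no bound. Fitting only the libraries compared called 0 members between the genotypes at day 0 (10 at an unadjusted p under 0.05), 8 at day 4, 31 at day 7 (30 higher and 1 lower), 14 from day 0 to day 4 in WT, and 0 for the change of the difference to day 4 (1 at an unadjusted p under 0.05). A stricter filter of 1 CPM in 4 libraries called 22 in WT and 22 in TKO from day 0 to day 7. For the change to day 4, the effective-length offset called 0 (4 unadjusted) and transcripts with unique sequence 2. The causes were not tested, apart from fewer libraries or genes entering a fit.

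The TKO to WT ratio of the alpha sum was 3.21 on the TPM scale and 1.28 with protein-coding transcripts at day 0, 3.62 and 3.39 at day 2, and 1.36 and 1.48 at day 7. That of the beta sum was 3.35 at day 7 in TPM. That of the gamma sum was 1.26 at day 2 in TPM, and without the short Pcdhgc4 transcript 1.91 at day 2 and 1.95 at day 7.

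Leaving out single libraries gave 0 to 12, 6 to 10, 11 to 15 and 12 to 18 members called between the genotypes on days 0, 2, 4 and 7. It gave 16 to 24 in WT and 15 to 24 in TKO from day 0 to day 4, 30 to 35 and 36 to 38 to day 7, and 0 to 3 and 3 to 6 for the change of the difference to days 4 and 7. Ratios ranged from 1.35 to 1.71, 3.12 to 3.29, 1.53 to 2.32 and 1.51 to 1.59 for alpha, 1.33 to 1.71, 1.55 to 1.80, 2.17 to 3.89 and 2.73 to 3.14 for beta, and 1.10 to 1.29, 1.21 to 1.23, 1.38 to 1.56 and 1.73 to 1.84 for gamma.

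Differences between replicates 1 and 2 correlated between groups with r from -0.745 to 0.135 (28 pairs of groups, median -0.0135). Same-numbered libraries thus did not deviate strongly in the same direction. An r of -0.745 is a shared deviation of opposite sign, and the labels do not say whether a number marks a shared day. The correlations therefore cannot settle whether libraries were paired. With a replicate block the calls were 7, 13, 17 and 24 between the genotypes on days 0, 2, 4 and 7, 25 and 26 in WT and TKO to day 4, 35 and 39 to day 7, and 0 (5 unadjusted) and 5 for the change of the difference.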

Other observations

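Pcdhgb8, annotated as a polymorphic pseudogene in the gamma cluster, was not called in any of the 10 comparisons. It stood at 2.24 and 4.62 CPM in WT and 4.24 and 5.25 CPM in TKO at day 0, and at 5.77 and 6.03 CPM in WT and 3.56 and 3.69 CPM in TKO at day 7. Its groups overlapped at day 0, and both WT libraries lay above both TKO libraries at day 7, where the log2 difference was -0.70 ± 0.36 (edgeR, adjusted p = 0.137). The 3 annotated models that fuse neighbouring members held 4.025 estimated counts over all 16 libraries.

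By summed TPM per gene, the order of Pcdhgc4 and Pcdhgc3 at day 7 differed between TKO and WT, which rests on the short Pcdhgc4 model. The full-length Pcdhgc4 model stood at 0.939 and 0.815 TPM in WT and 2.85 and 2.05 TPM in TKO at day 7. The full-length Pcdhgc3 model stood above it in both genotypes, at 21.6 and 21.2 TPM in WT and 50.6 and 49.6 TPM in TKO. Pcdhgc4 stood at 32.4 TPM and Pcdhgc3 at 22.7 TPM on average in WT at day 7, and in TKO Pcdhgc3 stood at 52.5 TPM and Pcdhgc4 at 43.6 TPM. Pcdhgc5 followed at 12.0 TPM, largely from its short models, and Pcdhb22, the highest beta gene, at 4.76 TPM in TKO. These are means of 2 libraries with no test between genes.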
